A study of Homo sapiens with 6 samples.

Results

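FEZF1, the transcript antisense to it (FEZF1-AS1) and its paralog FEZF2 were examined in Ewing sarcoma cells in which the oncogenic fusion EWSR1::FLI1 was either left at its usual level or knocked down. These 3 genes were taken by symbol from a table of 26364 gene symbols, because the FEZF1 pair had been among the largest decreases upon EWSR1::FLI1 knockdown in earlier results of the same libraries. They were thus chosen by their FPKM values in these 6 libraries, and their levels are given below as a description without a test. RNAseq was available for 6 libraries of A673/TR/shEF cells, a derivative of the Ewing sarcoma line A673 that carries a tetracycline repressor and a doxycycline-inducible shRNA against the fusion mRNA. All the cells, controls included, carried both constructs and grew in blasticidin and zeocin. The EWSR1::FLI1high group (3 libraries) received no doxycycline, and the EWSR1::FLI1low group (3 libraries) received 1 µg/mL doxycycline for 72 h, so the agent and the knockdown cannot be told apart. A single parental line was used. The design text speaks of independent clones while the sample titles number experiments, so the unit that the replicates repeat is unclear. Whether part of the spread between them is technical is not known. In RNA from bulk cultures, fewer expressing cells and less RNA per cell cannot be told apart.

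FEZF1 and FEZF2 encode C2H2 zinc finger transcription factors of the developing forebrain. They act mainly as repressors and recruit Groucho/TLE corepressors through an Engrailed homology motif near their N-terminus. FEZF1 is needed for olfactory axons to enter the brain and for the migration of gonadotropin-releasing hormone (GnRH) neurons, and its loss in people causes Kallmann syndrome. FEZF2 specifies deep-layer cortical neurons that project below the cortex, partly through BCL11B. FEZF1-AS1 is a long non-coding RNA that has been described mainly in carcinomas, where it was reported to bind chromatin modifiers. EWSR1::FLI1 retains the ETS domain of FLI1, which recognises GGAA, and it can turn tandem GGAA repeats into active enhancers.

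FEZF1 (ENSG00000128610) lies on the minus strand of chromosome 7, from 121941357 to 121950745 in GRCh37. FEZF1-AS1 (ENSG00000230316) lies on the plus strand of the same stretch, from 121943712 to 121950173. The annotated exons of the pair share 782 bases, which is 26.6% of the 2942 exonic bases of FEZF1 and 17.5% of the 4475 exonic bases of FEZF1-AS1. Whether strand was used in counting is not given in the sources used here, so reads from the shared bases cannot be assigned to one gene or the other. FEZF2 (ENSG00000153266) lies on chromosome 3, from 62355356 to 62359999, also on the minus strand, and shares no exon with either of them.

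The genome was searched for tandem runs of at least 4 GGAA units on either strand, where a unit is the letters GGAA (TTCC on the opposite strand). A run of 16 units stood at chr7:121943527-121943590 and another of 5 units at chr7:121943631-121943650, both in the intron between the exons 1 and 2 of the transcript FEZF1-203. They ended 122 and 62 bases upstream of the start of FEZF1-AS1-202, and 1214 and 1154 bases downstream of the start of FEZF1-203. The window around these runs is shown because they are the GGAA repeats closest to the FEZF1 pair. It is read 5′ to 3′ on the plus strand of GRCh37, with capitals for every stretch of consecutive GGAA units. The window starts inside the FEZF1 intron and closes on the first bases of FEZF1-AS1-202.
FEZF1 intron and FEZF1-AS1 start, chr7:121943497-121943730: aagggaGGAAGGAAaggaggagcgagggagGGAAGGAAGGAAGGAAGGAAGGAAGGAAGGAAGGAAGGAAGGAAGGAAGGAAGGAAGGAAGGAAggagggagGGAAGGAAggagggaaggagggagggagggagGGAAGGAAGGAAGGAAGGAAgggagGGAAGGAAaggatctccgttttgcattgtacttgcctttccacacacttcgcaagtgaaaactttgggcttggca

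Beside its longest runs, the window held further GGAA pairs broken by short G-rich spacers, all on the plus strand. The search found 16453 runs of at least 4 units in the genome, of which 471 had at least 16 units. Over 22191 genes with an annotated start, the median distance from a start to the nearest run was 73.6 kb. A run stood as near as that of FEZF1-AS1 in 0.0991% of them. For FEZF1 the closest start was that of FEZF1-202, at 903 bases, and 1.28% of the genes had a run as near. These matches describe the reference sequence, since binding of the fusion was not measured here.

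**Figure D1:**
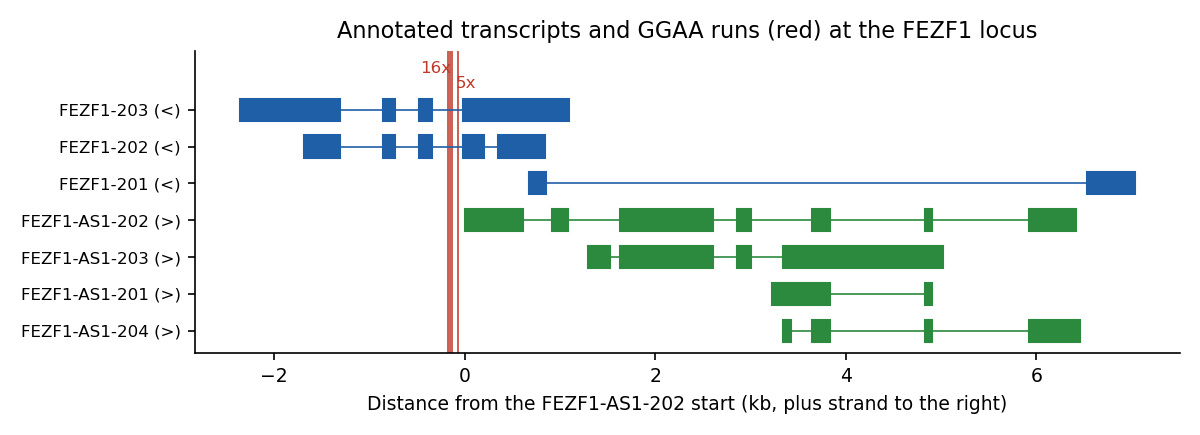
Annotated transcripts of FEZF1 (blue, minus strand) and FEZF1-AS1 (green, plus strand), with exons as boxes and introns as lines, drawn by distance in kb from the start of FEZF1-AS1-202. The red bars mark the GGAA runs of 16 and 5 units, 122 and 62 bases upstream of that start and inside the intron between the exons 1 and 2 of FEZF1-203.

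In EWSR1::FLI1high cells, FEZF1 was expressed at 29.7, 30.1 and 36.1 FPKM (fragments per kilobase of gene, scaled by a factor for each library) in replicates 1, 2 and 3. In EWSR1::FLI1low cells it was at 2.36, 1.06 and 1.61 FPKM. Every knockdown library was far below every control library, and the ranges did not overlap. The means were 32.0 ± 3.57 and 1.68 ± 0.655 FPKM (SD, n = 3 in each group), so the knockdown cells held 5.25% of the control level, a 19.1-fold difference. These values rested on 682, 526 and 612 reads in the control libraries and on 46, 19 and 55 reads in the knockdown libraries. The weakest of them, in EWSR1::FLI1low replicate 2, had an exact Poisson 95% interval of 0.637 to 1.65 FPKM, so FEZF1 remained detectable in each library. Such intervals cover counting error only. In control cells 82.2% of the 15504 genes with a mean of at least 0.5 FPKM had a lower mean than FEZF1, against 26.5% in knockdown cells. FEZF1 thus moved from the upper part of the expressed genes to the lower part.

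FEZF1-AS1 stood above FEZF1 in every library. In EWSR1::FLI1high cells its 3 libraries gave 41.6, 51.7 and 59.4 FPKM, and those of EWSR1::FLI1low cells gave 5.51, 1.38 and 2.35 FPKM, again for replicates 1, 2 and 3. As for FEZF1, the groups did not overlap. The means were 50.9 ± 8.90 and 3.08 ± 2.16 FPKM (SD, n = 3 in each group), a 16.5-fold difference that left 6.05% of the control level. Without EWSR1::FLI1low replicate 1 the fold was 27.3 and the remaining level 3.66%. The reads behind them were 1159, 1094 and 1220 in the control libraries and 130, 30 and 97 in the knockdown libraries. On the log2(FPKM + 1) scale, on which changes at low FPKM appear too small, the difference of knockdown minus control was −3.78 for FEZF1-AS1 and −3.65 for FEZF1. Of the 15504 genes, 1 had a larger decrease than FEZF1-AS1 and 3 had a larger decrease than FEZF1 on this scale. That position is what brought the pair to notice.

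The antisense transcript and its partner kept a similar ratio in both conditions. FEZF1-AS1 over FEZF1, in FPKM, was 1.40, 1.72 and 1.65 in EWSR1::FLI1high replicates 1, 2 and 3, and 2.33, 1.30 and 1.46 in EWSR1::FLI1low replicates 1, 2 and 3. The mean ratio was 1.59 ± 0.165 in control cells and 1.70 ± 0.556 in knockdown cells (SD, n = 3 in each group). The knockdown values lay on both sides of the control range, with EWSR1::FLI1low replicate 1 above it and replicate 2 below it. Because of the shared exon bases, part of this likeness may be the same reads, which was not tested.

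FEZF2 was near the limit of detection throughout. It was at 0.0914, 0.0601 and 0.309 FPKM in EWSR1::FLI1high replicates 1, 2 and 3, which is 2, 1 and 5 reads. In EWSR1::FLI1low replicates 1, 2 and 3 it was at 0.162, 0.175 and 0.0615 FPKM, which is 3, 3 and 2 reads. Summed over the libraries, each group had 8 reads, and the ranges overlapped. A floor of 3 reads corresponds to 0.0923 to 0.186 FPKM depending on the library, so no fold is given. Any change of FEZF2 upon knockdown was not detectable at this depth. Of the 3 genes, the 2 FEZF1 transcripts passed the filter of 0.5 FPKM on the mean and FEZF2 did not.

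**Figure D2:**
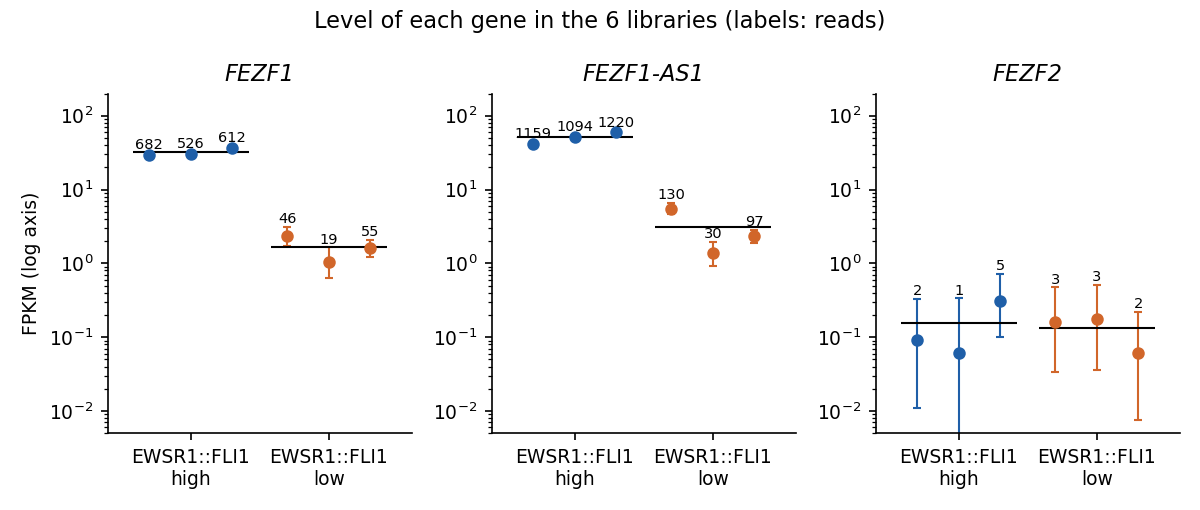
FPKM of FEZF1, FEZF1-AS1 and FEZF2 on a log axis in the 3 EWSR1::FLI1high libraries (blue) and the 3 EWSR1::FLI1low libraries (orange), replicates 1 to 3 from left to right, with bars for the exact Poisson 95% interval, lines for the group mean and labels for the reads. FEZF1 and FEZF1-AS1 stand at 29.7 FPKM or more in control cells and at 5.51 FPKM or less in knockdown cells, while FEZF2 has 1 to 5 reads in every library.

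The targeted transcript was set beside the FEZF1 pair. FLI1, the 3′ part of the chimeric mRNA, was at 22.9%, 33.8% and 29.0% of the control mean in EWSR1::FLI1low replicates 1, 2 and 3 (log2 difference −1.57, limma adjusted p = 0.000676). FEZF1 was at 7.39%, 3.31% and 5.04% of its control mean in the same libraries, and FEZF1-AS1 at 10.8%, 2.71% and 4.61%. In each knockdown library the FEZF1 pair was therefore reduced by a larger share than FLI1. In FPKM the order of the libraries was reversed. EWSR1::FLI1low replicate 1 had the least FLI1 and the most FEZF1 and FEZF1-AS1, and replicate 2 the most FLI1 and the least of both. The place of replicate 1 for FLI1 depends on the scaling. Per read on genes, EWSR1::FLI1low replicate 3 (251 FLI1 reads of 16658933) had less FLI1 than replicate 1 (113 of 6980361). With 3 libraries this order is a description only. EWSR1::FLI1low replicate 1 also had the fewest reads of the 6 libraries (6980361, against up to 16658933), and its part in the order was not tested.

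**Figure D3:**
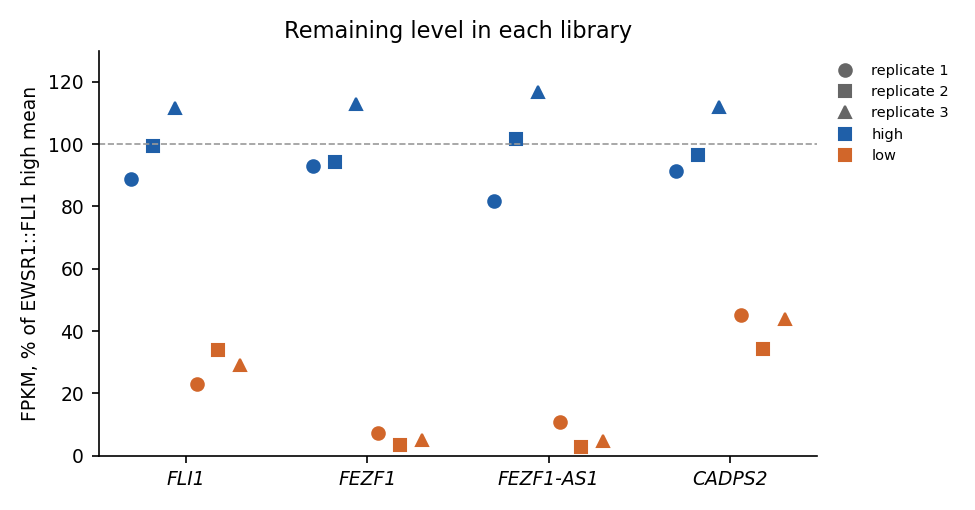
FPKM of FLI1, FEZF1, FEZF1-AS1 and the neighbouring gene CADPS2 in each library, as a percentage of the EWSR1::FLI1high mean of that gene (dashed line at 100). In EWSR1::FLI1low libraries FLI1 stands at 22.9% to 33.8%, FEZF1 at 3.31% to 7.39%, FEZF1-AS1 at 2.71% to 10.8% and CADPS2 at 34.2% to 45.0%.

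The Ewing sarcoma identity of the libraries and the signal of other cell types were checked with marker genes. NR0B1, NKX2-2, CD99 and STEAP1, genes of Ewing sarcoma cells, were present in all 6 libraries. Upon knockdown NR0B1, STEAP1 and NKX2-2 fell to 15.4%, 22.8% and 31.0% of the control mean (limma adjusted p = 0.00172, 0.00108 and 0.00258). CD99 was at 69.1% and did not pass (limma adjusted p = 0.0670). NR0B1, STEAP1 and NKX2-2 are also among the fusion-activated genes listed below. Of 10 markers of leukocytes, endothelium, epithelium and other cells, none was at 0 FPKM in any library. Of the 4 that could be tested none changed at a limma adjusted p under 0.01, and the smallest adjusted p was 0.0333, for PECAM1. Without the keratins KRT8 and KRT18 the other markers summed to 1.74 to 2.64 FPKM in the control libraries and to 2.41 to 4.10 FPKM in the knockdown libraries, with the highest sum in EWSR1::FLI1low replicate 1. With the keratins, which made up most of the signal, the sums were 52.1, 59.2 and 80.8 FPKM in control libraries and 45.1, 94.2 and 113 FPKM in knockdown libraries, and EWSR1::FLI1low replicate 1 was the lowest. The part of these markers in the FEZF1 and FEZF1-AS1 signal that remained was not tested.

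The tested genes with the pattern most like that of FEZF1 were then sought, by the root mean square difference over the 6 libraries after each gene was centred on its own mean log2(FPKM + 1). The closest was APELA, which encodes a small secreted ligand of the apelin receptor, with a difference of 0.113. CCK, the precursor of the peptide hormone cholecystokinin, followed with 0.223 and CLUL1, a clusterin-like retinal gene, with 0.233. FEZF1-AS1 was the 4th of 15503 genes with 0.253, and PPP1R1A, an inhibitor of protein phosphatase 1, came next with 0.262. The median over all genes was 1.83.

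On the log2(FPKM + 1) scale, which compresses low values, these genes had decreases of similar size, and they shared the order of the knockdown libraries. As a ratio of mean FPKM the decreases were less alike, at 40.8-fold for CCK and 29.2-fold for APELA against 19.1-fold for FEZF1. APELA was at 14.8, 15.3 and 18.1 FPKM in control libraries and at 0.858, 0.326 and 0.465 FPKM in knockdown libraries, replicates 1 to 3. CCK was at 8.68, 11.3 and 15.0 FPKM in control libraries and at 0.697, 0 and 0.159 FPKM in knockdown libraries. CLUL1 was at 33.2, 41.2 and 53.5 FPKM in control libraries and at 4.27, 1.03 and 2.03 FPKM in knockdown libraries. In all of them, and in PPP1R1A (2.64, 1.06 and 1.26 FPKM), EWSR1::FLI1low replicate 1 kept the most and replicate 2 the least, as for FEZF1. The likeness measure chose them for such an order. CLUL1 was closer to FEZF1-AS1 (0.0766) than FEZF1 itself was.

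The distance to GGAA runs was not part of that choice. The nearest run stood 3.78 kb upstream of APELA (14 units), 0.342 kb upstream of CCK (11 units) and 1.99 kb downstream of the closest CLUL1 start (16 units). For PPP1R1A it was 36.3 kb away (10 units), and for SLC35F3, the 6th in likeness and looked up after its values were seen, 45.8 kb away (7 units). Over all genes with an annotated start, 5.39% had a run as near as that of APELA. The share was 0.451% for CCK, 2.94% for CLUL1, 31.8% for PPP1R1A and 37.2% for SLC35F3. The runs of APELA, CCK and CLUL1 are shown to be set against that of FEZF1, each on the plus strand of GRCh37 with 10 bases on either side.
APELA, chr4:165794488-165794563: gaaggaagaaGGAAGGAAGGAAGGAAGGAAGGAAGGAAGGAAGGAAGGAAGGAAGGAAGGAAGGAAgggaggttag
CCK, chr3:42308009-42308072: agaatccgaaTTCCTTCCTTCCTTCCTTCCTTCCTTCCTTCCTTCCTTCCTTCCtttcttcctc
CLUL1, chr18:626936-627019: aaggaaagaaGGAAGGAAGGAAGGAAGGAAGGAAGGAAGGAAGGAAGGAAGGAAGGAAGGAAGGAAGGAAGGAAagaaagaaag

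Over the whole table, 113 of 466 genes that fell upon knockdown (24.2%) had a run of at least 4 units within 10 kb of a start. The share was 11.9% over the 13726 tested genes with an annotated start and 15.5% over the 658 genes that rose. Within 1 kb the shares were 4.08%, 1.5% and 1.82%. FEZF1 and FEZF1-AS1, chosen for their decrease in these libraries, were not taken out of these counts. The shares are therefore not separate from the pair, and no test of them was made.

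The promoter windows of FEZF1 itself held no tandem GGAA pair. In the RefSeq promoter sequences (GRCh38.p14, 250 bases before to 50 after each start), FEZF1 had 2 windows and neither contained GGAAGGAA or TTCCTTCC, which 3.67% of all 35116 promoters do. The window with the larger number of single cores is shown, on the minus strand and with each GGAA or TTCC in capitals.
FEZF1 promoter, chr7:122304701-122305000 (GRCh38.p14): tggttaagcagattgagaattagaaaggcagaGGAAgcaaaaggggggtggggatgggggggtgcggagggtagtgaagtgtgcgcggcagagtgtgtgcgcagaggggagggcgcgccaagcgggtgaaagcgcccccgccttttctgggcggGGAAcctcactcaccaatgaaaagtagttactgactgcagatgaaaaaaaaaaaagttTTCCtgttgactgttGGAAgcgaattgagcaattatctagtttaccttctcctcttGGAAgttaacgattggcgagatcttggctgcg
It held 5 single cores, and the other window held 2. As many as 5 cores occur in 28.6% of promoters, as many as 2 occur in 83.8%, and the median is 3.

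The genes beside FEZF1 were examined next, as the 5 genes on each side of FEZF1 and of FEZF2. Over all 15504 genes tested with limma at an adjusted p under 0.01, 3.37% fell and 4.51% rose upon knockdown. Of the 20 neighbours 11 were tested, 3 fell, none rose and 8 did not pass. The median log2 difference of the tested neighbours was −0.40, against −0.05 over all tested genes. Beside FEZF1, 2 of 7 tested genes fell, and beside FEZF2, 1 of 4.

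CADPS2, which encodes a regulator of dense-core vesicle release, is the next gene of the table beyond the FEZF1 start, also on the minus strand. The gap of 7.719 kb reaches from the outermost FEZF1 start to the 3′ end of CADPS2, whose annotated 5′ end lies far beyond, at 122526813. CADPS2 was at 54.6, 57.6 and 66.8 FPKM in control libraries and at 26.9, 20.4 and 26.2 FPKM in knockdown libraries, with no overlap. Its log2 difference was −1.26 (SE 0.19, limma adjusted p = 0.00266). The call of CADPS2 was lost without any of the 3 EWSR1::FLI1high libraries (adjusted p = 0.0139, 0.0202 and 0.0234 without replicates 1, 2 and 3) and without EWSR1::FLI1low replicate 2 (0.0116). Knockdown cells held 41.0% of the CADPS2 level of control cells, against 5.25% for FEZF1. The nearest run to a CADPS2 start had 5 units and was 22.6 kb away, and 22.8% of genes had a run as near.

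RNF148 and RNF133, RING finger genes best known from testis, lie inside the CADPS2 span on the same strand, so their reads cannot be told apart from unspliced CADPS2 RNA. RNF148 fell from 6.51 ± 0.565 FPKM in control cells to 1.77 ± 0.487 FPKM in knockdown cells (SD, n = 3; log2 difference −1.45, limma adjusted p = 0.000872). RNF133 was at 4.19 ± 1.23 and 1.54 ± 0.778 FPKM (SD, n = 3 in each group), and its limma adjusted p of 0.0205 did not pass. On the other side, AASS, a gene of lysine breakdown, was at 41.4 and 23.4 FPKM (log2 difference −0.84, limma adjusted p = 0.0363). Without EWSR1::FLI1low replicate 1, RNF133 (0.00365) and AASS (0.00233) passed, and RNF133 also passed with a replicate block (0.00311). PTPRZ1, FAM3C and CPED1 had log2 differences of 0.36, 0.60 and 0.09, and none of them passed, although FAM3C did without EWSR1::FLI1low replicate 1 (limma adjusted p = 0.00549), with median-ratio scaling (0.00784), with quantile normalization (0.00294) and with limma-voom on reads (0.00671). WNT16, TAS2R16 and SLC13A1 were below the filter.

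The surroundings of FEZF2 contained paralogs of the FEZF1 neighbours, CADPS beside CADPS2 and PTPRG beside PTPRZ1. CADPS, whose 3′ end lies 24.0 kb from FEZF2, was as low as FEZF2, at 0.171 FPKM in control cells and 0.117 FPKM in knockdown cells, and could not be tested. SYNPR, which encodes the synaptic vesicle protein synaptoporin, was the one neighbour of FEZF2 that fell. It was at 5.45, 7.06 and 8.25 FPKM in control libraries and at 1.39, 0.245 and 0.537 FPKM in knockdown libraries (log2 difference −2.24, SE 0.26, limma adjusted p = 0.000635). A run of 5 units stood 7.29 kb upstream of a SYNPR start, and 9.16% of genes had a run as near. SYNPR lies 854 kb from FEZF2. PTPRG, a receptor tyrosine phosphatase, was at 6.26 ± 0.374 and 14.6 ± 5.51 FPKM (SD, n = 3 in each group), higher in each knockdown library, with a limma adjusted p of 0.0183 that passed without EWSR1::FLI1low replicate 1 (0.00657) and with a replicate block (0.0091). C3orf14 and PTPRG-AS1, the latter 0.274 kb from FEZF2, had log2 differences of −0.40 and −0.24 and did not pass. FHIT, FAM3D, LINC00698, SYNPR-AS1 and SNTN were below the filter.

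**Figure D4:**
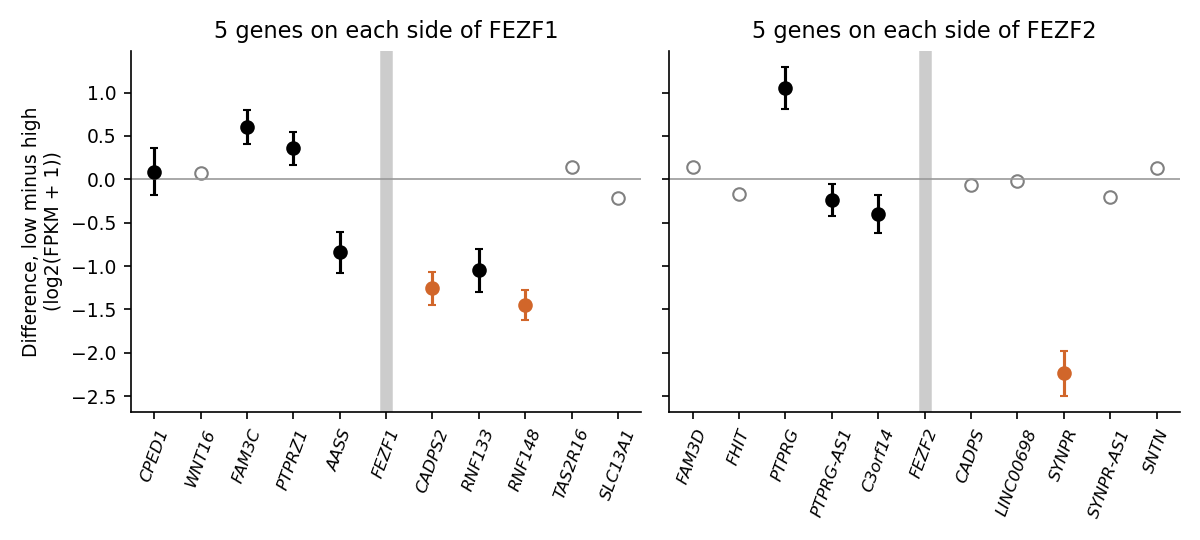
Difference of knockdown minus control on the log2(FPKM + 1) scale, with its standard error, for the 5 genes on each side of FEZF1 (left) and FEZF2 (right), in order along the chromosome and not to scale. Orange marks a limma adjusted p under 0.01 (CADPS2, RNF148 and SYNPR, all lower), black a tested gene that did not pass and open circles a gene below the filter.

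The partners of the FEZF proteins were described by lists of genes. Over all tested genes, 3.37% fell and 4.51% rose, the shares to set beside each count. Of 6 genes of the Groucho/TLE family, 5 could be tested, 1 rose and none fell, with a median log2 difference of 0.22. Which of the 6 work with FEZF proteins in these cells was not tested. The one that rose was TLE1. It was at 1.86, 1.45 and 1.62 FPKM in control libraries and at 7.83, 6.78 and 7.42 FPKM in knockdown libraries, a 4.47-fold increase (log2 difference 1.66, SE 0.15, limma adjusted p = 0.000258). TLE3 and TLE4 were at 5.83 and 7.43 FPKM in control cells and at 6.93 and 10.7 FPKM in knockdown cells, without passing. AES, the short family member also called TLE5, was the most abundant one, at 42.6 and 36.9 FPKM. TLE2 was near 1 FPKM in both conditions and TLE6 was below the filter. TLE1, TLE3 and TLE4 were therefore detected in both conditions, while FEZF1 was at 5.25% of its control level.

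Of 25 genes of the forebrain network around the FEZF genes, 11 could be tested and the remaining 14 were below the filter. Of the 11, 3 fell and 1 rose, against 3.37% and 4.51% over all tested genes, with a median log2 difference of −0.29. BCL11B, which in cortex acts downstream of FEZF2 in subcortically projecting neurons, fell from 20.5, 18.0 and 20.8 FPKM to 3.82, 3.68 and 3.55 FPKM (log2 difference −2.15, SE 0.16, limma adjusted p = 9.51e-05). FEZF2 had 1 to 5 reads per library in the same cells, and any link between FEZF2 and BCL11B was not tested. OTX2, a homeobox factor of the anterior brain, fell from 53.8, 50.8 and 62.5 FPKM to 20.6, 9.52 and 17.8 FPKM (log2 difference −1.80, limma adjusted p = 0.00273). LDB2, an adaptor of LIM homeodomain proteins that is also enriched in corticospinal neurons, fell from 34.9 to 16.7 FPKM (log2 difference −1.01, limma adjusted p = 0.00966). DLX2, a homeobox factor of inhibitory neurons, rose from 3.34 to 9.04 FPKM (log2 difference 1.20, limma adjusted p = 0.00574).

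Of these genes, BCL11B passed in all 14 alternative analyses. The other calls were less stable. With quantile normalization OTX2 (limma adjusted p = 0.0113), DLX2 (0.0154) and LDB2 (0.0154) did not pass, and with no filter on low values neither DLX2 (0.0157) nor LDB2 (0.0156) did. The OTX2 call was also lost without any of the EWSR1::FLI1high libraries, with a limma adjusted p up to 0.0201. Those of DLX2 and LDB2 were lost in the same fits and without EWSR1::FLI1low replicate 3, with a limma adjusted p up to 0.0327 and 0.0562, and that of LDB2 also without EWSR1::FLI1low replicate 2. Accordingly, 1 of the list passed when any EWSR1::FLI1high library was left out, and 2 when EWSR1::FLI1low replicate 3 was.

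Of 26 genes of Kallmann syndrome and GnRH neurons, the setting in which FEZF1 mutations act in people, 19 could be tested, 2 rose and 1 fell, with a median log2 difference of 0.18. The single decrease among 19 is near the share of 3.37% over all tested genes, of which 4.51% rose. SEMA3A, a secreted guidance cue for GnRH axons, rose from 36.9, 37.7 and 38.3 FPKM to 103, 111 and 123 FPKM (log2 difference 1.55, SE 0.17, limma adjusted p = 0.000469). ANOS1, the X-linked Kallmann gene for the matrix protein anosmin, rose from 0.470 to 1.63 FPKM (log2 difference 0.83, limma adjusted p = 0.00811). HS6ST1, a heparan sulfate sulfotransferase, fell from 10.4 to 4.65 FPKM (log2 difference −1.01, limma adjusted p = 0.00669). SEMA3A passed in all 14 alternative analyses. The calls of ANOS1 and HS6ST1 were lost without any of the EWSR1::FLI1high libraries or either of the EWSR1::FLI1low replicates 2 and 3, with limma adjusted p up to 0.0414 and 0.0363. Both were also lost with no filter (0.0145 and 0.0156), and that of ANOS1 with a replicate block (0.0112) and with a mean of at least 1 FPKM (0.0104). In the list, 1 gene passed without any EWSR1::FLI1high library or without EWSR1::FLI1low replicate 3, and 7 passed without EWSR1::FLI1low replicate 1.

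Of 5 genes reported elsewhere as partners or targets of FEZF1-AS1, all were tested, 1 fell and none rose, with a median log2 difference of 0.01. The shares over all tested genes were 3.37% and 4.51%. EZH2, the histone methyltransferase of Polycomb repressive complex 2, fell from 77.0, 87.4 and 104 FPKM to 30.4, 39.1 and 48.7 FPKM (log2 difference −1.17, SE 0.22, limma adjusted p = 0.00751). Its call was lost without any of the EWSR1::FLI1high libraries and without EWSR1::FLI1low replicate 2, with a limma adjusted p up to 0.0490, and with no filter on low values (0.0146). KDM1A, a histone demethylase, was at 117 and 79.7 FPKM with a limma adjusted p of 0.0473. CDKN1A, KLF2 and PKM had log2 differences of 0.17, 0.01 and 0.02 and did not pass. These 4 were named after their values were seen.

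**Figure D5:**
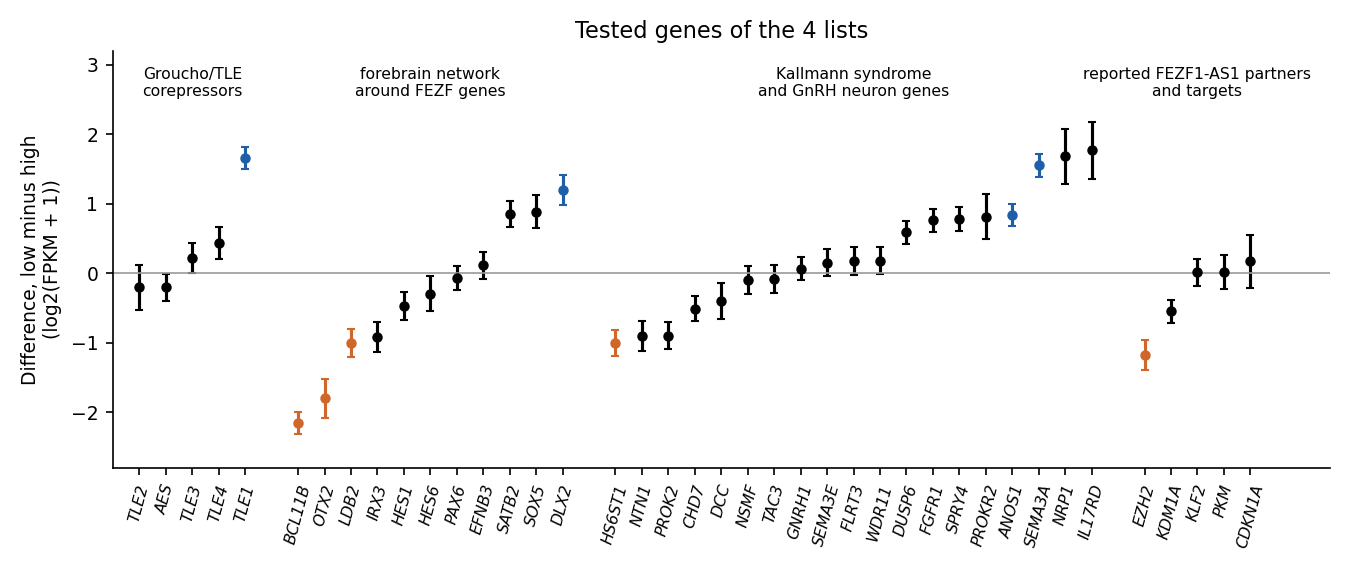
Difference of knockdown minus control on the log2(FPKM + 1) scale, with its standard error, for the tested genes of 4 lists, ordered by value within each list. Orange marks genes that fell and blue genes that rose at a limma adjusted p under 0.01, 8 higher or lower in total besides TLE1 (BCL11B, OTX2, LDB2, DLX2, HS6ST1, ANOS1, SEMA3A and EZH2), and black genes that did not pass.

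A list of 14 genes known to be activated by EWSR1::FLI1 gave the scale of the change elsewhere. Like the other lists it was chosen with earlier results of these data known, so its counts are a description. Of these, 11 fell and none rose, against 3.37% and 4.51% over all tested genes. Their median log2 difference was −1.73, with a lowest value of −3.30, for CCK. Without EWSR1::FLI1high replicate 2 or 3, 5 of them passed. The differences of FEZF1-AS1 (−3.78) and FEZF1 (−3.65) were larger in size than those of the 14 on this scale, which follows from how the pair was chosen. The order turned on other scales, since CCK was at −5.38 with a pseudocount of 0.1 and −5.97 with limma-voom, against −4.23 for FEZF1 and −4.21 for FEZF1-AS1 in both. Among the 14 genes, the closest runs within 3 kb of a start were those of CCK, NR0B1 (1.37 kb), UGT3A2 (1.66 kb), CAV1 (1.76 kb) and LIPI (2.34 kb). In the rest of the 14 the nearest run was 3.99 kb (PAX7) to 199 kb (GLI1) away. Over all genes with an annotated start, 3.46% had a run as near as that of LIPI.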

How the data were processed

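RNAseq of 6 A673/TR/shEF libraries was analysed, 3 per condition, grouped by their treatment labels and numbered by their titles. Per the submitters' processing notes, the tools were STAR 2.5.0b, bedtools 2.17.0, Cufflinks 2.2.1 and DESeq2 1.6.3, with GRCh37. The annotation release and any strand setting are not given in the sources used here. The file deposited by the authors gives 1 FPKM value for each of 26364 symbols in each library, with replicates kept apart. They also deposited a table of their own comparison, of which the mean normalized count per gene (a signal over the 6 libraries) was used, while its fold changes, standard errors, test statistics and p-values were not. Scaled by gene to that mean, 100% of the FPKM values above 0 were whole reads within 0.1, with 6980361 to 16658933 reads on genes per library. The scaling factors behind the FPKM were not proportional to these reads. They were 0.951 in EWSR1::FLI1low replicate 1 (6980361 reads) and 0.877 in EWSR1::FLI1low replicate 2 (8570957 reads). Reads set the Poisson intervals and the floor of 3 reads. Replicates were compared before averaging. The chi-square per degree of freedom over genes was 4.25 to 6.27 between EWSR1::FLI1high libraries and 20.2 to 31.5 between EWSR1::FLI1low libraries, so each counted as 1 replicate.

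Genes with a mean of at least 0.5 FPKM (15504) were tested on log2(FPKM + 1) with limma 3.58.1 in R 4.3.3 (lmFit, eBayes with trend), EWSR1::FLI1low against EWSR1::FLI1high, with Benjamini-Hochberg adjustment over all of them and a call at an adjusted p under 0.01. The fit was tried only on simulated data with large changes, which cannot show how it performs for small ones. The members and gene lists were chosen with earlier results of these data known. Named genes were the 3 members, FLI1 and EWSR1, the TLE genes, the called genes of the other lists (at most 4 per direction), the 5 genes on each side of FEZF1 and FEZF2, and the 5 genes most like FEZF1. EWSR1, the 5′ partner, had a log2 difference of −0.50 (limma adjusted p = 0.159). Alternatives were no filter (any mean above 0), a pseudocount of 0.1, a mean of at least 1 FPKM, median-ratio scaling, quantile normalization, a replicate block, eBayes without trend, limma-voom with TMM factors on the recovered reads, and leaving out each library in turn. Positions came from GENCODE v44 lifted to GRCh37, in which 22494 symbols matched, and promoters from RefSeq (GRCh38.p14), which held FEZF1. The sequence near FEZF2 is not reported here. Tables, intervals and plots were made in Python 3.11.15 with matplotlib 3.10.9, pandas 2.3.3 and scipy 1.17.1.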

Additional observations from a re-analysis of the deposited data

How the results depend on the processing

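FEZF1 and FEZF1-AS1 were lower upon knockdown in every alternative tried. Without 1 library at a time their log2 differences ranged from −3.82 to −3.47 and from −4.19 to −3.46. That of FEZF1 was −4.23 both with a pseudocount of 0.1 and with limma-voom. FEZF2 had no stable sign (−0.079 to 0.073 without 1 library), since its difference of −0.021 became 0.073 without EWSR1::FLI1high replicate 3 and 0.025 without EWSR1::FLI1low replicate 3. CPED1 changed from 0.09 to −0.14 with limma-voom and to −0.25 without EWSR1::FLI1low replicate 1, within −0.25 to 0.31 without 1 library, and never passed.

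Counts of calls moved more. Over all genes, 522 fell and 700 rose, against 297 and 456 with no filter, 990 and 994 with quantile normalization, 813 and 994 with median-ratio scaling, and 874 and 1125 with limma-voom. Without 1 library at a time, 157 to 807 fell and 308 to 1527 rose, and the direction of the excess turned without EWSR1::FLI1low replicate 3 (689 fell and 415 rose). The forebrain list gave 2 calls with no filter or with quantile normalization and 1 to 5 without 1 library. The Kallmann list gave 1 with no filter, 6 with median-ratio scaling or quantile normalization, 8 with limma-voom and 1 to 7 without 1 library. The FEZF1-AS1 partners gave 0 with no filter and 0 to 1 without 1 library, fusion-activated genes 5 to 11, and the neighbours 2 to 7. For single named genes, 402 alternative values kept direction and side of the threshold, 46 lost the call and 9 gained it. The cause of these changes was not tested.

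Replicate numbers were not taken to pair the libraries. The deviations of same-numbered libraries correlated with r = 0.27, 0.09 and 0.12 across genes, so all were positive and the second was under 0.1. Those of different numbers correlated with r from −0.29 to 0.19. EWSR1::FLI1high replicate 3 and EWSR1::FLI1low replicate 2 correlated best with each other rather than with their own number. In every other combination of different numbers r was negative. Whether same-numbered libraries belong together is not settled by these values. With the replicate block, 786 fell and 916 rose over all genes, 5 neighbours passed in place of 3 (PTPRG and RNF133 were added), and ANOS1 no longer passed, while the block changed no other call of a named gene. Depth limited FEZF2, and the 19 to 55 reads of FEZF1 in knockdown libraries limit its remaining level.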
